A study of Mus musculus with 8 samples.

Results

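DNA methylation is written and removed by a small set of enzymes, and the levels of 10 of their genes were followed here across 8 RNA sequencing libraries of mouse stem cells and blastoids. The members were taken by symbol from the deposited table, and all 10 were found among its 24888 genes: Dnmt1, Uhrf1 and Uhrf2 (maintenance), Dnmt3a, Dnmt3b and Dnmt3l (de novo methylation), and Tet1, Tet2, Tet3 and Tdg (oxidation and excision). All libraries came from the E14 embryonic stem cell (ESC) line and each stood alone in its group, with no replicate. ESC were kept in serum with LIF and the inhibitors CHIR99021 and PD0325901. Expanded potential stem cells (EPSC) were derived from them over 5 passages in knockout serum replacement with LIF, CHIR99021, PD0325901, JNK Inhibitor VIII, SB203580, A-419259 and XAV939. Both states were sequenced untreated and after 3 days with T0901317 (T09), an agonist of the liver X receptors, at 1 uM/mL as the labels spell the dose, from which no concentration can be read. Blastoids are aggregates of stem cells that model the blastocyst. A pair of day 2 blastoid libraries, derived from EPSC, was made 48 hours after siRNA transfection. The siRNA was against Nr1h2, the gene of liver X receptor beta (siNr1h2), or was non-targeting (siNT). A pair of day 5 libraries came from blastoids picked by hand as Type I or Type III, grown from T09-treated EPSC.

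In mammals a methyl group is placed on cytosine, mostly in CpG. DNMT3A and DNMT3B place new methyl groups, and DNMT3L, which has no catalytic activity of its own, stimulates them. After replication UHRF1 recognises hemimethylated DNA and recruits DNMT1, which copies the mark to the new strand, while UHRF2 is a close relative of UHRF1 that does not replace it in maintenance. The TET enzymes oxidise 5-methylcytosine, and TDG excises the most oxidised forms so that base excision repair can restore cytosine. In the mouse embryo methylation is low in the blastocyst and is laid down again as the epiblast leaves the naive state, with DNMT3B the better known enzyme of that step. The libraries measured RNA only, and methylation itself was not measured.

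Total counts ran from 24666260 in siNr1h2 to 40781415 in T09-treated EPSC. Levels are given in CPM, the counts divided by library depth after TMM scaling, and the interval behind each is a 95% exact counting interval, which covers counting error only and not the difference between cultures. Of the 10 members, 9 had at least 100 counts in every library, and Tdg had 2 to 31 counts. The 14 primitive endoderm markers, from the lineage that lies beside the blastocyst cavity, summed to between 225 and 619 CPM in ESC and EPSC, to 3798 CPM in siNT and 3615 in siNr1h2, and to 25183 CPM in Type I and 14396 in Type III. In ESC 2 of these 14, Foxa2 and Afp, were at 0 counts with and without T09. The largest part of the day 5 sums was the matrix gene Col4a1, at 15510 CPM in Type I and 7700 in Type III. From day 2 to day 5, 12 of the 14 were higher and 0 lower. In Type I over Type III, 1 of the 14 was called higher at 2-fold and 0 lower, against 7.68% of all genes in either direction. The 13 trophectoderm markers summed to between 137 and 208 CPM in ESC and EPSC, to between 298 and 307 CPM on day 2 and to between 1445 and 1616 CPM on day 5. Most of the day 5 sum was the keratin genes Krt8 (717 CPM in Type I, 754 in Type III) and Krt18 (553 and 648). From day 2 to day 5, 4 of the 12 trophectoderm genes tested were higher and 3 lower, against 48.9% of all genes called in either direction. The 14 naive pluripotency genes summed to between 5631 and 8805 CPM in ESC and EPSC, to 2976 and 2907 CPM on day 2 and to 922 CPM in Type I and 1666 in Type III, with 0 of the 14 at 0 counts in any library. These sums moved with the blastoid results below, and their part in those results was not tested. In bulk RNA, fewer cells of a type and less RNA per cell cannot be told apart.

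**Figure D1:**
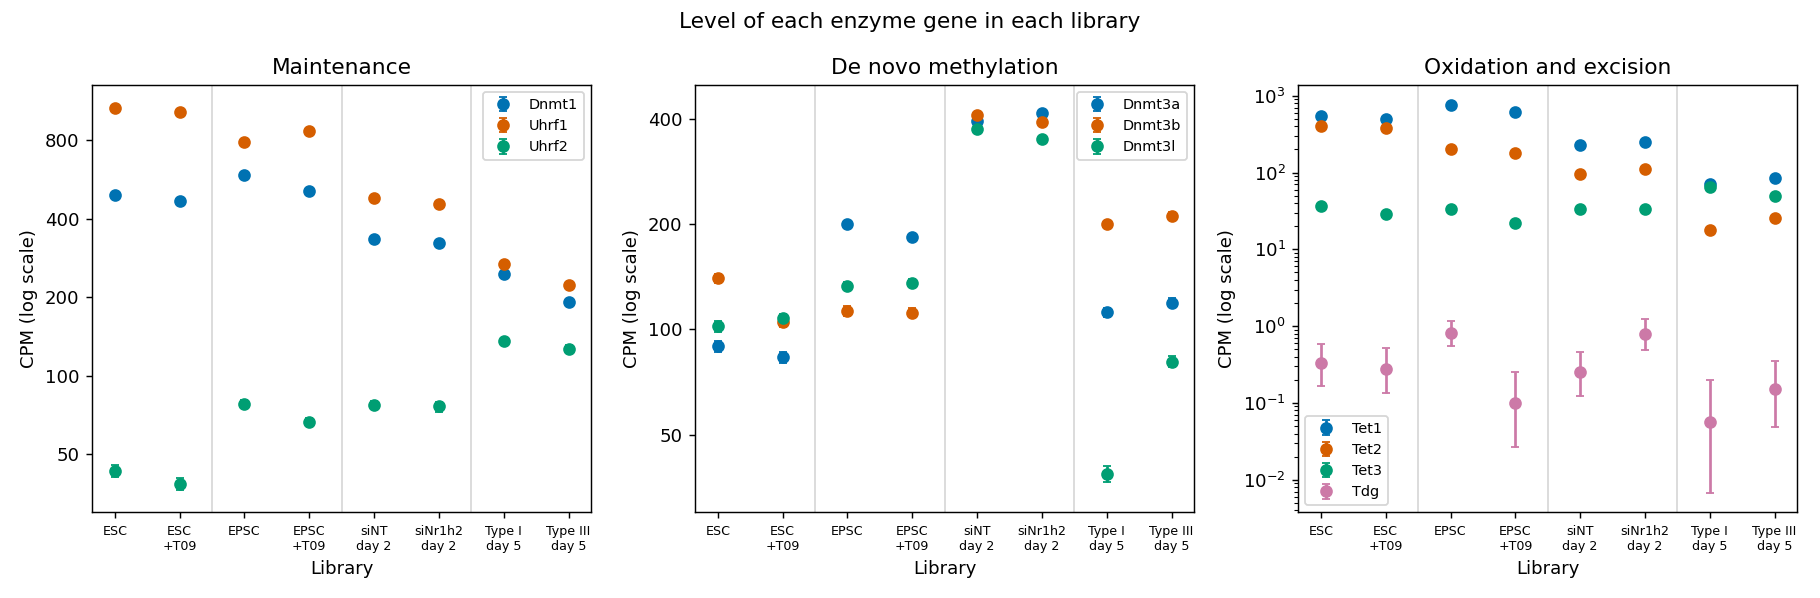
Level of the 10 enzyme genes in CPM (log axis) in each of the 8 libraries, 1 library per point, with 95% exact counting intervals, many of which are smaller than the point. Dnmt3a, Dnmt3b and Dnmt3l stand between 351 and 416 CPM in both day 2 libraries, above their levels in all other libraries, while Tet1 and Tet2 are at their lowest in the day 5 libraries.

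Of the maintenance genes, Dnmt1 and Uhrf1 were high in the stem cells and lower at each blastoid stage, whereas Uhrf2 was lowest in ESC and highest on day 5. Dnmt1 (chr9:20907209-20959888, minus strand, GRCm38), the copying methyltransferase, stood at 491 CPM in ESC, 468 in T09-treated ESC, 586 in EPSC, 511 in T09-treated EPSC, 335 in siNT, 324 in siNr1h2, 245 in Type I and 192 in Type III. The 2 libraries of each stage did not overlap with those of any other stage, in the order EPSC, ESC, day 2 and day 5. The share of all genes whose stages separate in this way was not counted. Separation of stages, here and for the members below, is therefore a description and not a trait particular to these genes. Uhrf1 (chr17:56303321-56323486, plus strand), which brings DNMT1 to replicated DNA, stood at 1060.3 CPM in ESC, 1022 in T09-treated ESC, 783 in EPSC, 868 in T09-treated EPSC, 478 in siNT, 454 in siNr1h2, 268 in Type I and 223 in Type III. Its stages did not overlap either, with ESC highest. Uhrf2 (chr19:30030513-30093722, plus strand) stood at 43.1 CPM in ESC, 38.5 in T09-treated ESC, 78.0 in EPSC, 66.7 in T09-treated EPSC, 77.2 in siNT, 76.3 in siNr1h2, 136 in Type I and 127 in Type III. ESC held the lowest levels of Uhrf2 and day 5 the highest, and EPSC and day 2 overlapped.

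The ratio of Uhrf1 counts to Uhrf2 counts within a library, in which depth cancels, was 24.6 in ESC (23.3 to 25.9), 10.0 in EPSC (9.68 to 10.4), 6.19 in siNT (5.96 to 6.44), 1.97 in Type I (1.90 to 2.04) and 1.76 in Type III (1.69 to 1.83). Scaled by the length of annotated exons, Uhrf1 was above Dnmt1 in all 8 libraries, at 249 CPM per kb against 66.5 in ESC and at 62.9 against 33.2 in Type I, and this order also held with the longest coding transcript as the length. A processed copy annotated as Gm5648 matches 1590 bases of the Uhrf1 transcript at 98.3% identity and is not a symbol in the table, so the share of reads it could take is not known.

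Both Dnmt1 and Uhrf1 have a RefSeq start whose preceding 250 bases hold a word bound by E2F factors, the regulators of S-phase genes. These stretches are shown as the only matches among the members. Both genes fell at each blastoid stage, but so did Tet1 and Tet2, whose starts held 0 such words. The other starts of Dnmt1 and Uhrf1 held 0 as well, and a part of the words in the fall was not tested. Each window is 30 bases of GRCm38, on the gene's own strand, with the word in capitals; Dnmt1 carries it as the reverse complement, 219 bases before the third of its starts, and Uhrf1 185 bases before the second.
Dnmt1, chr9:20952824-20952853: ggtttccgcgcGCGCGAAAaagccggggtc
Uhrf1, chr17:56304117-56304146: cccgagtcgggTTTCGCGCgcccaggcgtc
The words searched were TTTCCCGC, TTTCGCGC, TTTGCCGC and TTTGGCGC on both strands; 2 of the 17 RefSeq starts of the members held one, against 1.86% of 32851 starts in the table. The Dnmt1 window overlaps the first exon of other annotated Dnmt1 transcripts. Every word searched holds a CpG. The 250 bases with a match held 26 CpG for Dnmt1 and 30 for Uhrf1, against a median of 6 over all starts. The shares were not matched for CpG content, so no enrichment is read from them. A match describes the letters, and binding was not measured.

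The 3 de novo genes rose and fell together around day 2. Dnmt3a (chr12:3806007-3914443, plus strand), a catalytic de novo methyltransferase, stood at 89.5 CPM in ESC, 83.3 in T09-treated ESC, 199.7 in EPSC, 184 in T09-treated EPSC, 395 in siNT, 416 in siNr1h2, 112 in Type I and 119 in Type III. Its stages did not overlap, and both EPSC libraries were above both ESC libraries. Dnmt3b (chr2:153649450-153687730, plus strand), the other catalytic de novo enzyme, stood at 140.1 CPM in ESC, 105 in T09-treated ESC, 113 in EPSC, 112 in T09-treated EPSC, 410.0 in siNT, 391 in siNr1h2, 199.6 in Type I and 211 in Type III. ESC and EPSC overlapped for Dnmt3b, and both were below day 5, which was below day 2. Dnmt3l (chr10:78041947-78063622, plus strand), the cofactor without catalysis, stood at 102 CPM in ESC, 108 in T09-treated ESC, 133 in EPSC, 136 in T09-treated EPSC, 374 in siNT, 350.6 in siNr1h2, 38.6 in Type I and 80.9 in Type III. Day 5 was its lowest stage, and the 2 day 5 libraries stood further apart than the pair of any other stage.

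Per kb of exon, Dnmt3l was the highest of the 3 in each of the 6 ESC, EPSC and day 2 libraries, with 51.0% of their summed level in ESC, 56.6% in EPSC and 54.6% in siNT. Dnmt3b led on day 5, with 66.6% in Type I and 54.7% in Type III, and Dnmt3a held 8.03 to 15.3% throughout. Against Dnmt1 per kb, all 3 were lower in the 4 stem cell libraries, whereas Dnmt3l (125 CPM per kb in siNT) and Dnmt3b (80.3) were above Dnmt1 (45.4) in both day 2 libraries. These orders held with either length. Dnmt3c, a relative that matches 1434 bases of the Dnmt3b transcript at 93.9% identity, is not a symbol in the table, so reads from it cannot be told from those of Dnmt3b where the sequence is shared. The exons of Dnmt3l overlap those of Aire, on the opposite strand, by 67 bases, and Aire had 55 to 678 counts. The exons of Dnmt3a overlap those of its antisense gene Dnmt3aos by 133 bases, at 0 to 1 counts.

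**Figure D2:**
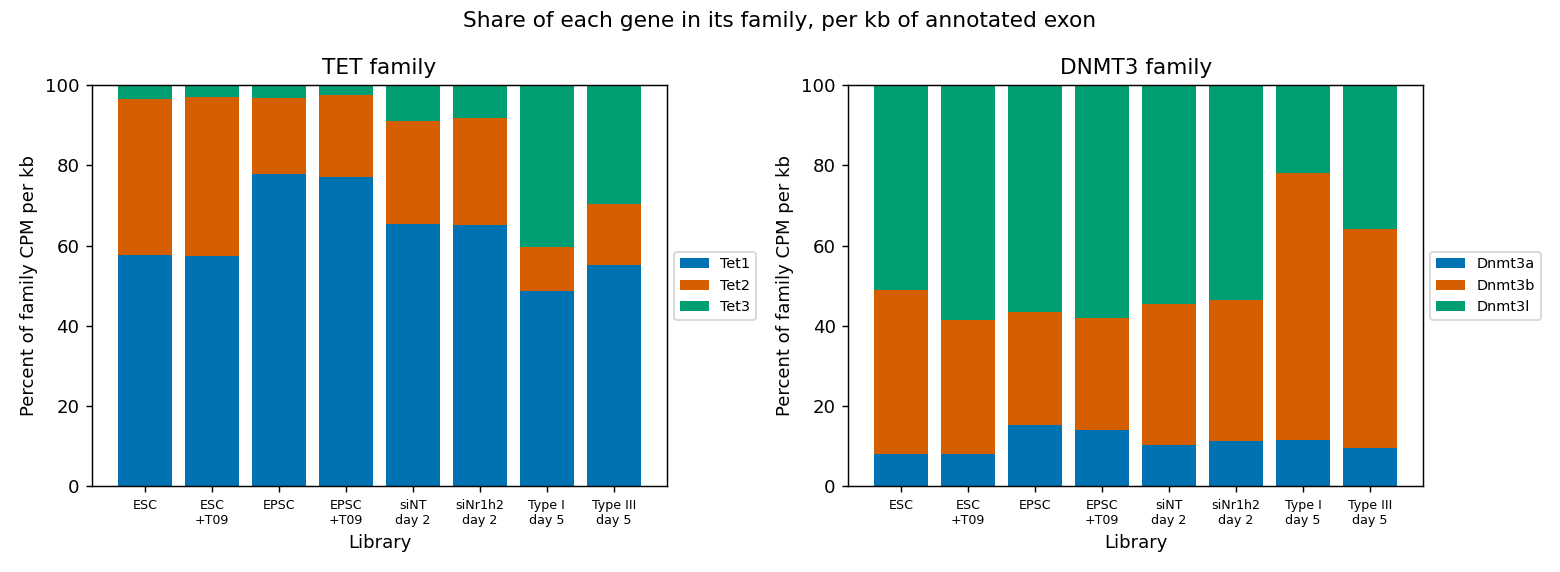
Share of each gene in the summed CPM per kb of its family, for the TET genes and the DNMT3 genes, in each of the 8 libraries. Tet3 makes up 3.57% of the TET sum in ESC and 40.5% in Type I, and Dnmt3b replaces Dnmt3l as the leading DNMT3 gene on day 5.

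Tet1 and Tet2 were the most widely varying well-counted members, and Tet3 went the other way. Tet1 (chr10:62804570-62908996, minus strand), the oxidase best known in pluripotent cells, stood at 551 CPM in ESC, 503 in T09-treated ESC, 762 in EPSC, 616 in T09-treated EPSC, 226 in siNT, 246 in siNr1h2, 71.5 in Type I and 84.6 in Type III. Its order was EPSC, ESC, day 2 and day 5, without overlap between stages. Tet2 (chr3:133463679-133545139, minus strand), an oxidase without the CXXC domain that the other TET proteins can carry, stood at 403 CPM in ESC, 380.0 in T09-treated ESC, 204 in EPSC, 178 in T09-treated EPSC, 96.9 in siNT, 111 in siNr1h2, 17.7 in Type I and 25.2 in Type III. Its level was lower at each stage than at the one before, and ESC over Type I came to 22.8-fold, a wider range than in 99.1% of the 9677 genes with at least 100 counts in every library. Highest over lowest library came to 10.7-fold for Tet1 (EPSC over Type I), wider than in 97.3% of them, and to 9.70-fold for Dnmt3l (siNT over Type I), wider than in 96.8%. Tet3 (chr6:83362373-83459084, minus strand), the oxidase known from the zygote, stood at 36.9 CPM in ESC, 28.6 in T09-treated ESC, 33.7 in EPSC, 22.3 in T09-treated EPSC, 33.2 in siNT, 33.6 in siNr1h2, 64.4 in Type I and 49.0 in Type III. The day 5 libraries were above all others for Tet3, and the remaining stages overlapped.

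The TET genes changed places. Per kb of exon their summed level was 61.8 CPM per kb in ESC, 63.5 in EPSC, 22.3 in siNT and 9.53 in Type I. The order was Tet1, Tet2, Tet3 in EPSC and on day 2, with either length. In ESC, Tet1 was above Tet2 per kb of all annotated exons (57.7% against 38.7% of the sum) and below it per kb of the longest coding transcript (44.8% against 51.3%), so their order was not settled. On day 5 Tet2 was the lowest of the 3 with either length, at 10.99% of the sum in Type I and 15.1% in Type III per kb of all annotated exons. In Type I, Tet1 was above Tet3 by that length (48.6% against 40.5%). It was below Tet3 by the longest coding transcript (38.9% against 46.1%), so the order of Tet1 and Tet3 there was not settled. The count ratio of Tet1 to Tet3 was 15.0 in ESC (14.1 to 15.9), 22.6 in EPSC (21.4 to 23.9), 6.80 in siNT (6.42 to 7.21) and 1.11 in Type I (1.05 to 1.18). That of Dnmt3b to Tet1 went from 0.148 in EPSC (0.144 to 0.153) to 1.82 in siNT (1.77 to 1.86).

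The starts of Tet2 and Dnmt3l are shown because these 2 genes had the lowest day 5 levels relative to day 2 among the well-counted members, yet differ in the CpG content before their starts. Each is the 250 bases before a RefSeq start in GRCm38, on the gene's strand, with every CpG in capitals.
Tet2, chr3:133544391-133544640, minus strand: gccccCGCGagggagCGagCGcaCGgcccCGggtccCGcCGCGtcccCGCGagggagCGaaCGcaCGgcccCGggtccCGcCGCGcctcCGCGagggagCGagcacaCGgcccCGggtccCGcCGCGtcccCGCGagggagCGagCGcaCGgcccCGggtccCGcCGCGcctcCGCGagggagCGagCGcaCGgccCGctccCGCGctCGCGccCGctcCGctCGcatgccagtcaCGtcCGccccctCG
Dnmt3l start 3, chr10:78055085-78055334, plus strand: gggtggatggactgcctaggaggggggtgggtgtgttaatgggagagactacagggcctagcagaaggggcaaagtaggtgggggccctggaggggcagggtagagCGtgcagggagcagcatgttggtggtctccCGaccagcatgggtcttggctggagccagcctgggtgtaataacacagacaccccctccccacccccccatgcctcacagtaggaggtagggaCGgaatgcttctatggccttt
The Tet2 stretch held 51 CpG, more than 99.9% of the 32851 starts in the table, whose median was 6. The Dnmt3l stretch held 3, the fewest of the Dnmt3l starts, and those before the other Dnmt3l starts held 5 and 4. Which start was used in these libraries was not measured. Of the other members, Dnmt3b had 21 CpG, Tet1 15, Tet3 17, Uhrf2 23 and Tdg 19. Those with several starts had 38, 40 and 15 CpG for Dnmt3a, 10 and 30 for Uhrf1, and 2, 7 and 26 for Dnmt1. A direct repeat of AGGTCA with 4 bases between, the element of the liver X receptors, was searched on both strands: 0 of the 17 member starts and 0.0152% of all starts held it, which says only that these letters are not in these windows.

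Tdg (chr10:82629828-82650799, plus strand), the glycosylase that removes oxidised methylcytosine, had 11 counts in ESC, 10 in T09-treated ESC, 31 in EPSC, 4 in T09-treated EPSC, 10 in siNT, 21 in siNr1h2, 2 in Type I and 5 in Type III. The highest level was 0.812 CPM in EPSC (0.552 to 1.15). Its transcript is 98.7% identical over 2968 bases to the copy Tdg-ps, and 99.3% and 99.2% identical to the copies Gm5597 and Gm9855; Gm9855 was in the table at 0 counts and the other copies are not symbols in it. Its exons also overlap those of Glt8d2, on the opposite strand, by 367 bases, at 0 to 8 counts. How the counting treated reads that match several copies is not stated, so these counts may not measure the expression of Tdg.

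The change of each gene between successive stages was fitted with edgeR's quasi-likelihood test, with 2 libraries a stage. These libraries differ in treatment and are not replicates, so the treatment counts as spread. Each group had 1 library, so the p-values here and in the 4-library fit below do not measure the difference between repeated cultures or derivations. From ESC to EPSC 2 members rose and 1 fell of 10 tested, against 21.6% of all genes called in either direction. Dnmt3a rose by a log2 change of 1.14 (SE 0.10, Benjamini-Hochberg adjusted p = 5.92e-05), Uhrf2 rose by 0.81 (SE 0.12, adjusted p = 0.00101) and Tet2 fell by 1.05 (SE 0.15, adjusted p = 0.00107). From EPSC to day 2, 3 rose and 4 fell of 10, against 37.5% of all genes. All 3 de novo genes rose, Dnmt3b by 1.87 (SE 0.14, adjusted p = 4.32e-06), Dnmt3l by 1.47 (SE 0.25, adjusted p = 0.00122) and Dnmt3a by 1.12 (SE 0.10, adjusted p = 2.23e-05). Tet1 fell by 1.51 (SE 0.14), Tet2 by 0.84 (SE 0.15), Uhrf1 by 0.79 (SE 0.12) and Dnmt1 by 0.70 (SE 0.13), with adjusted p from 1.85e-05 to 0.00266. Uhrf2 (log2 change 0.13), Tet3 (0.29) and Tdg (0.22) did not pass. Both day 2 libraries followed siRNA transfection and no EPSC library is labelled as transfected, so stage and transfection cannot be told apart. In addition, 1 of the 2 EPSC libraries had T09 and no day 2 library did.

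From day 2 to day 5, 2 members rose and 7 fell of 10, against 48.9% of all genes called in either direction. The median log2 change of the 10 was -1.29, beside a median of 0 over all 15812 genes tested. Dnmt3l fell by 2.61 (SE 0.26, adjusted p = 3.80e-05), Tet2 by 2.28 (SE 0.16, adjusted p = 7.58e-06), Dnmt3a by 1.82 (SE 0.11, adjusted p = 3.22e-06) and Tet1 by 1.60 (SE 0.14, adjusted p = 1.65e-05). Dnmt3b fell by 0.97 (SE 0.13), Uhrf1 by 0.93 (SE 0.12) and Dnmt1 by 0.60 (SE 0.13). Uhrf2 rose by 0.77 (SE 0.12, adjusted p = 0.000470) and Tet3 by 0.76 (SE 0.21, adjusted p = 0.0131). The Tet3 call was lost without siNT (adjusted p = 0.0755), without siNr1h2 (0.0639) or without Type I (0.0719). Day 5 also differs from day 2 in the T09 given to the source EPSC and in the siRNA transfection behind the day 2 libraries. Stage and these treatments cannot be told apart.

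**Figure D3:**
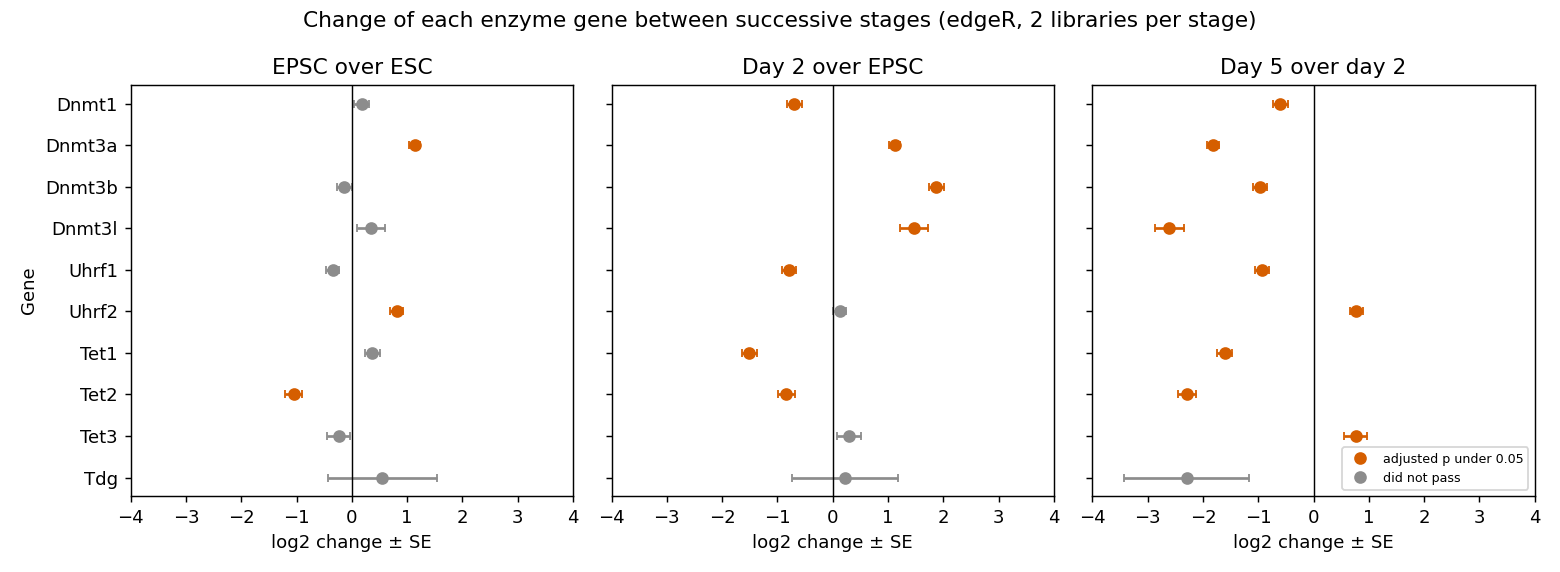
Log2 change with its standard error of the 10 enzyme genes in 3 successive stage contrasts, fitted over 8 libraries with 2 per stage. Points in orange passed an adjusted p under 0.05. Dnmt3a, Dnmt3b and Dnmt3l lie to the right of 0 from EPSC to day 2 and to the left from day 2 to day 5, while Tet1 and Tet2 lie to the left in both.

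Ratios of 2 single libraries set each kind of blastoid beside an EPSC library. The siNT library differed from untreated EPSC in transfection as well as in stage, and these cannot be told apart. A gene was called when its ratio was at least 2-fold, its counting interval excluded 1 and it had at least 20 counts in 1 library, and no p-value is given since each side is 1 library. In siNT over untreated EPSC, Dnmt3b stood at 3.63-fold (log2 ratio 1.86, 1.81 to 1.91), Dnmt3l at 2.81-fold (1.49, 1.45 to 1.54) and Dnmt3a just under the threshold at 1.98-fold (0.98, 0.95 to 1.02). With library totals in place of TMM the ratios of Dnmt3a and Tet2 were 1.08 and -0.99, so Dnmt3a was called and Tet2 was not. Tet1 stood at 29.6% and Tet2 at 47.4% of the EPSC level, and with Tdg these made 2 members called higher and 3 lower, against 25.8% of all genes. In Type I over T09-treated EPSC, Tet1 stood at 11.6%, Tet2 at 9.95%, Dnmt3l at 28.4%, Uhrf1 at 30.9% and Dnmt1 at 47.8%, and Tet3 at 2.88-fold and Uhrf2 at 2.04-fold, a call that Uhrf2 lost with library totals (log2 ratio 0.99). These were 2 called higher and 5 lower of 9, against 40.8% of all genes. In Type III over T09-treated EPSC, Tet1 stood at 13.7%, Tet2 at 14.2%, Uhrf1 at 25.7% and Dnmt1 at 37.5%, and Tet3 at 2.20-fold. These were 1 higher and 4 lower of 9, against 37.7% of all genes. Dnmt3b was above T09-treated EPSC on day 5 without reaching 2-fold, at 1.79-fold in Type I and 1.89-fold in Type III, whereas Dnmt3a was below it, at 61.0% and 65.0%. The 2 day 5 ratios share their EPSC library.

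ESC and EPSC were also compared over the 4 stem cell libraries alone, in an edgeR fit of state plus T09 with 1 residual degree of freedom. Here 4 members rose in EPSC and 2 fell of 10, against 28.8% of all genes called in either direction. Dnmt3a rose by 1.14 (SE 0.10, adjusted p = 5.24e-05), Uhrf2 by 0.81 (SE 0.12, adjusted p = 0.000936), Tet1 by 0.37 (SE 0.11, adjusted p = 0.0300) and Dnmt3l by 0.35 (SE 0.10, adjusted p = 0.0297). Tet2 fell by 1.05 (SE 0.10, adjusted p = 9.66e-05) and Uhrf1 by 0.35 (SE 0.11, adjusted p = 0.0428). With DESeq2 in place of edgeR the Dnmt3l call was lost (adjusted p = 0.0655). Without T09, EPSC over ESC gave 2 members called higher and 0 lower, Dnmt3a at 2.23-fold and Tdg, against 17.6% of all genes. With T09 in both, Dnmt3a was called higher at 2.20-fold and Tet2 lower at 46.8%, against 18.1% of all genes. Tet2 without T09 stood at 50.7%, just short of the threshold. The log2 ratio of Dnmt3b was -0.31 (-0.37 to -0.25) without T09 and 0.09 (0.03 to 0.16) with it.

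T09 addressed what activation of the liver X receptors does to these genes. Its known target Abca1, a cholesterol exporter, stood at 51.0 CPM in ESC and 340 in T09-treated ESC, and at 18.3 in EPSC and 211 in T09-treated EPSC. Of the 10 members 0 passed the T09 term of the edgeR fit, against 0.104% of all genes, and 0 passed with DESeq2, which gave Tdg no adjusted p, while 1, Tet3, in the edgeR fit had an unadjusted p under 0.05, as did 879 of all 14477 genes. Tet3 stood at a log2 change of -0.48 (SE 0.14, adjusted p = 0.530), with log2 ratios of -0.37 (-0.49 to -0.25) in ESC and -0.60 (-0.72 to -0.47) in EPSC. Tet1 stood at -0.13 (-0.16 to -0.10) in ESC and -0.31 (-0.33 to -0.28) in EPSC. Dnmt3b stood at -0.42 (-0.48 to -0.36) in ESC and -0.01 (-0.08 to 0.05) in EPSC, and Uhrf1 at -0.05 (-0.07 to -0.03) and 0.15 (0.13 to 0.17). By the 2-fold rule 0 of the 9 tested members was called in ESC, against 3.91% of all genes, and 1 of 10 in EPSC, against 4.19%, which was Tdg at 4 against 31 counts. A p that misses the threshold does not show that T09 left these genes unaltered.

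The siRNA libraries addressed a reduction of Nr1h2 on day 2, where Nr1h2 itself stood at 53.9 CPM in siNT and 37.7 in siNr1h2. Its target Abca1 was not lower, at 3.40 CPM in siNT and 5.07 in siNr1h2, nor was a further target, Abcg1, at 2.95 and 3.24 CPM. The 9 well-counted members lay between 93.7% of the siNT level, for Dnmt3l, and 114%, for Tet2. The counting interval of the log2 ratio of Dnmt3l was -0.13 to -0.06, that of Tet2 0.12 to 0.26, and those of Uhrf2 and Tet3 held 0. Of the 10, 1 was called, against 3.66% of all genes, and it was Tdg at 21 against 10 counts.

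Type I and Type III differed most in Dnmt3l. Type I held 47.7% of the Type III level (log2 ratio -1.07, -1.16 to -0.98), with 1384 against 2661 counts, and it was the 1 member called of 9 tested, against 7.68% of all genes. Tet2 stood at 70.0% (-0.51, -0.67 to -0.36) and Tet1 at 84.6% (-0.24, -0.32 to -0.16). Higher in Type I were Tet3 at 1.31-fold (0.39, 0.30 to 0.49), Dnmt1 at 1.27-fold (0.35, 0.30 to 0.40) and Uhrf1 at 1.20-fold (0.26, 0.22 to 0.31), none of them called. Dnmt3a stood at 93.8% and Dnmt3b at 94.5%. Beside these, the naive pluripotency genes had 0 called higher and 10 lower of 14 in Type I, with Pou5f1 at 160 CPM against 336 and Nanog at 33.9 against 99.5, and their part in the Dnmt3l and Tet ratios was not tested.

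**Figure D4:**
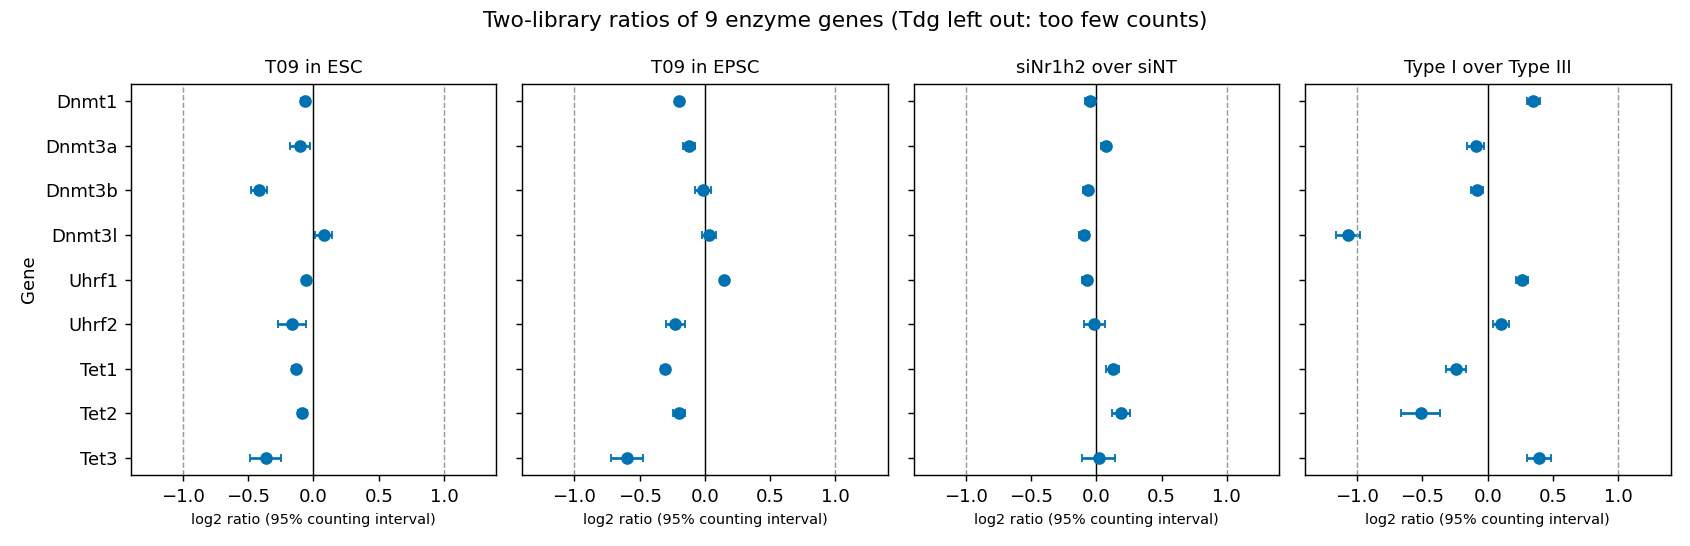
Log2 ratio of 2 libraries with its 95% counting interval for 9 enzyme genes, for T09 over untreated in ESC and in EPSC, siNr1h2 over siNT, and Type I over Type III. Dashed lines mark 2-fold. Dnmt3l in Type I over Type III, at -1.07, is the 1 point beyond a dashed line.

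Genes that act on these enzymes or with them were followed as lists, and their counts were read against the same background shares. Of all genes, 28.8% were called in either direction in the fit of state plus T09. In the stage fit the shares were 21.6% for EPSC over ESC, 37.5% for day 2 over EPSC and 48.9% for day 5 over day 2. Of 18 regulators and partners, 17 were tested in the fit of state plus T09. There 4 were higher in EPSC and 3 lower (median log2 change 0.10), with 3 and 1 of 18 in the stage fit of EPSC over ESC. Over all genes tested the median log2 change lay between 0.00 and 0.01 in the state fit and in the 3 stage contrasts. Ctcfl, a testis paralogue of CTCF, rose by 2.49 from 0.512 to 3.35 CPM, and Lin28a, an RNA-binding protein, rose by 0.73. Zscan4c, a gene of the 2-cell-like state, fell by 2.83 and Prdm14, which represses de novo methyltransferases, fell by 0.55. Prdm14 stood at 57.7 CPM in ESC, 35.2 in EPSC, 4.75 in siNT and 0.724 in Type I, and Lin28a at 80.3, 128, 573 and 657 CPM. From EPSC to day 2, 3 of the 18 were higher and 6 lower, and from day 2 to day 5, 1 was higher and 11 were lower (median -1.08). Among the latter, chosen after their values were seen, were the imprint keepers Trim28 (-1.07) and Zfp57 (-1.41) and the remodeller Hells (-1.23).

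The 20 DNA replication genes are of interest beside Dnmt1 and Uhrf1, which act at the replication fork. From ESC to EPSC over 4 libraries 1 was higher and 4 lower (median -0.10), with Mcm2, a subunit of the replicative helicase, at -0.42, Ccne1, cyclin E1, at -0.38 and Gins2, another helicase component, at 0.48. From EPSC to day 2, 0 were higher and 11 lower (median -0.37), and from day 2 to day 5, 1 was higher and 15 were lower (median -0.47). Their summed level went from 6546 CPM in ESC to 5514 in EPSC, 4320.1 in siNT and 2864 in Type I. The part of this in the Dnmt1 and Uhrf1 results was not tested.

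Of 8 methyl-CpG readers, 1 was higher in EPSC and 2 lower. Mbd2, a reader that recruits the NuRD complex, rose by 0.54, and Mbd4, a reader and thymine glycosylase that can act on the same mismatch as TDG, fell by 0.76. Zbtb4, a zinc finger reader, fell by 1.09, and it stood at 2.30 CPM in EPSC, 3.45 in siNT and 21.7 in Type I. From day 2 to day 5, 3 readers were higher and 3 lower, with a median of 0.00. Of 18 base excision repair genes, 1 was higher in EPSC in the fit of state plus T09 (Mutyh, an adenine glycosylase, 0.51). In that fit 1 was lower (Neil1, a glycosylase of oxidised bases, -0.66), against 28.8% of all genes called in either direction. The stage fit of EPSC over ESC called 0 higher and 0 lower, against 21.6%. On day 2 0 were higher and 6 lower than in EPSC, against 37.5% of all genes called in either direction. On day 5 1 was higher and 7 were lower than on day 2, against 48.9% of all genes.

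Of 18 genes of methyl donor supply and TET cofactors, 2 were higher in EPSC and 8 lower (median -0.28). Bhmt and Bhmt2, which make methionine from betaine and from S-methylmethionine, fell by 4.45 and 5.58. Bhmt stood at 109 CPM in ESC, 65.4 in T09-treated ESC, 6.52 in EPSC and 2.20 in T09-treated EPSC, and Bhmt2 at 22.8, 22.2, 0.445 and 0.494 CPM. Gldc, the glycine decarboxylase that feeds the folate cycle, rose by 0.99, and Idh2, a mitochondrial enzyme that makes the 2-oxoglutarate TET enzymes use, rose by 0.56. From EPSC to day 2, 4 were higher and 6 lower, and from day 2 to day 5, 3 were higher and 8 lower.

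Most of the 18 germline genes are known to be kept silent by promoter methylation. In the fit of state plus T09, 13 were higher in EPSC and 1 lower (median 1.495), with 9 and 1 in the stage fit of EPSC over ESC. Asz1, a piRNA pathway gene, rose by 4.06 and Slc25a31, a testis ADP/ATP carrier, rose by 3.54, while Rpl10l, a testis ribosomal protein gene, fell by 1.11. Asz1 stood at 0.663 CPM in ESC, 0.279 in T09-treated ESC, 7.54 in EPSC, 7.95 in T09-treated EPSC, 3.56 in siNT, 4.00 in siNr1h2, 0.139 in Type I and 0.426 in Type III. On day 2, 3 germline genes were higher and 3 lower than in EPSC (median 0.05). On day 5, 1 was higher and 14 were lower than on day 2 (median -1.33).

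The lists of cell states gave the setting. In the fit of state plus T09, 0 naive pluripotency genes were higher in EPSC and 9 lower of 14 (0 and 4 in the stage fit of EPSC over ESC), with Tfcp2l1 at -1.74 and Nanog at -1.09, and 7 primitive endoderm genes were higher and 1 lower of 12 tested, with Sox7 at 4.96, Gata6 at 3.90 and Hnf4a at -1.05. Of 10 trophectoderm genes tested there 2 were higher, Gata3 (1.47) and Tfap2c (0.55), and 6 lower, with Cdx2 at -5.44 and Gata2 at -2.75. Among 9 formative and primed genes tested there, Otx2 was higher (2.53) and T lower (-2.21). On day 2 all 10 formative and primed genes, of which Dnmt3b is one, were higher than in EPSC (median 2.21), as were 14 of 14 primitive endoderm genes (median 4.29) and 8 of 12 trophectoderm genes tested, with 2 lower.

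For each member whose highest level was at least 2-fold its lowest, the genes with the most similar profile were found by the root mean square (RMS) difference of centred log2 CPM over the 8 libraries, among 9466 named genes with at least 100 counts in every library. Nearest to Dnmt1 were Timeless (RMS difference 0.07), Fanca (0.09) and Kif14 (0.09), and nearest to Uhrf1 were BC030867 (0.12), Mcm2 (0.12) and Zswim1 (0.15). Nearest to Uhrf2 were Chid1 (0.10), Minpp1 (0.13) and Slc22a17 (0.14). Near to the de novo genes were B3gnt7 (0.23), Dab1 (0.28) and Zfp532 (0.30) for Dnmt3a, Porcn (0.20) and Ddit4l (0.22) for Dnmt3b, and Pdzd4 (0.21) and Anpep (0.24) for Dnmt3l. Nearest to Tet1 were Tm7sf3 (0.12), Dclk2 (0.15) and Bicral (0.16), to Tet2 Nfatc2ip (0.19), Mylpf (0.23) and Prx (0.30), and to Tet3 Ppp3ca (0.11) and Akap13 (0.14). The 8 points of a profile share their libraries and scaling, so likeness is given as a description.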

How the data were processed

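The authors deposited whole-number counts per gene symbol for 8 libraries, made from DNase-treated total RNA with a directional kit, per the labels' protocols. Tools in the submitters' processing notes are STAR, HTSeq and Cuffnorm and the build is mm9; versions and strand setting are not given in the sources used here, so overlapping and antisense genes may share reads. Counts were scaled by TMM in edgeR 4.0.16 under R 4.3.3, with filterByExpr for the fits and a prior count of 2 for ratios; 0 counts allows up to 3 counts per library. Alternatives were DESeq2 1.42.0, other scalings, other minimums and leaving out each library; the longest coding transcript as a second length was added after seeing the data. Library totals give the depth. Exon lengths, copies and gene coordinates came from GENCODE vM21 and starts from RefSeq (GRCm38.p6), a later build than mm9; all 10 members matched. Named were all members, the 2 genes of each list with the largest change in each direction past the state fit, and the 3 nearest profiles of each member, a few of which are not reported here. Genes outside this rule are named as examples. Members and lists were chosen with earlier results of these data known.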

Additional observations from a re-analysis of the deposited data

Results flagged for a closer look

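Uhrf1 was picked out because its T09 ratio had opposite signs in the 2 stem cell states, though neither ratio was called and Uhrf1 did not pass the T09 term of the edgeR fit (log2 change 0.05, adjusted p = 0.979). The log2 ratio of T09-treated over untreated cells was 0.15 in EPSC (35134 against 29922 counts) and -0.05 in ESC (36612 against 35178 counts), with counting intervals on opposite sides of 0. The difference, EPSC minus ESC, was 0.20. With 1 library per group the difference was not tested.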

How the results depend on the processing

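Genes passing the T09 term numbered 15 with edgeR's quasi-likelihood test (13 higher), 46 with low counts kept in (23 higher) and 37 with DESeq2 (20 higher); the members passing stayed at 0. Leaving out 1 library at a time moved the stage counts from 3413 to between 1854 and 4586 (EPSC over ESC, 1950 without T09-treated ESC, 2264 without EPSC and 1894 without T09-treated EPSC, lowest without ESC), from 5924 to between 3464 and 7123 (day 2 over EPSC, lowest without siNT, siNr1h2 or T09-treated EPSC) and from 7737 to between 5102 and 8064 (day 5 over day 2, lowest without siNT). Without a count minimum, 1045 genes were called for T09 in EPSC, 913 for T09 in ESC, 1134 for siNr1h2 over siNT and 1761 for Type I over Type III. Values that had not passed changed sign: Tdg between states with DESeq2 (-0.037) and, leaving out 1 library, Dnmt3b (-0.330 to 0.089), Tet3 (-0.564 to 0.029) and Tdg (-1.60 to 1.39) for EPSC over ESC, and Tdg for day 2 over EPSC (-0.79 to 2.38). In the stage fit of EPSC over ESC, Dnmt3l, Uhrf1 and Tet1 passed without Type I or without Type III, Uhrf1 and Tet1 with DESeq2 (adjusted p = 0.0393 and 0.0451), and Tet1 with low counts kept in (0.0293) or without T09-treated EPSC (0.0480); the cause was not tested. The 4-library fit could not be run without a library, as no residual degree of freedom was left. Size factors of DESeq2 type or library totals shifted the median of all genes by at most 0.09 on the log2 scale. Of member ratios near 2-fold, with library totals Dnmt3a (1.08) was gained and Tet2 (-0.99) lost in siNT over EPSC and Uhrf2 (0.99) lost in Type I over T09-treated EPSC; with size factors Dnmt3a (1.02) was gained in siNT over EPSC and Tet2 (-1.01) in untreated EPSC over ESC. No paired analysis was possible because the groups hold 1 library each and share no pairing. Tdg had only 2 to 31 counts, and how reads matching its near-identical copies were counted is not stated.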
